A study of Homo sapiens with 6 samples.

Results

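The genes described here are the protein-coding members of the HOX clusters, taken as every gene whose symbol is HOXA, HOXB, HOXC or HOXD followed by a number. All 39 such genes were found among the 26613 genes counted in at least 1 library of 293T cells, and 36 of them had enough counts to be tested. The 6 libraries were made from total RNA of 293T cells, a line derived from human embryonic kidney that takes up nucleic acid readily, after ribosomal RNA depletion. For 3 libraries (mimic) the cells were transfected with 10 nM of miR-941 duplex, and for 3 (mock) with scrambled oligonucleotide, for which the labels give no separate concentration. Both groups were plated 24 h before transfection with the same lipid reagent, so no library is from untransfected cells, and the labels call the 3 transfections of each group independent replicates.

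HOX proteins are transcription factors that bind DNA through a homeodomain and give cells their position along the head-to-tail axis of the embryo. The genes stand in 4 clusters on different chromosomes, and genes at the same place in different clusters form a paralogue group. Low-numbered groups act towards the head and high-numbered groups towards the tail. Several posterior genes, among them HOXA11 and HOXD11, are required for kidney development. Polycomb complexes keep silent HOX genes silent, and complexes built around MLL methyltransferases keep active ones active.

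On the GRCh38 assembly, with GENCODE release 29 gene models, the 11 HOXA genes lie on chromosome 7 between 27092993 and 27200106 on the minus strand. The 10 HOXB genes lie on chromosome 17 between 48528526 and 48729178, also on the minus strand. The 9 HOXC genes lie on chromosome 12 between 53938765 and 54056030, and the 9 HOXD genes on chromosome 2 between 176092891 and 176190907, both on the plus strand. The clusters are dense. Exons of 25 of the 39 genes share bases with those of another annotated gene, and 12 share over 20% of their exon bases.

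A microRNA lowers mRNAs whose 3′ UTRs pair with its bases 2 to 8, the seed, so the mature miR-941 strand and its matches in HOX 3′ UTRs are shown first. The strand, from RefSeq on GRCh38.p14, is printed with the seed in capitals. The matches are the 7 bases complementary to the seed, GCCGGGT, in capitals within the surrounding transcript, searched on the transcript strand, with the longest 3′ UTR in GENCODE standing for each gene.
miR-941: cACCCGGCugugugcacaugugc
HOXD11 3′ UTR: aggaagttggGCCGGGTtgggggttgc
HOXD12 3′ UTR: cgtggccaggGCCGGGTtggatctgcc
On GRCh38 the HOXD11 match spans bases 176109463 to 176109469 of chromosome 2, plus strand, and starts at base 321 of the 446 in that 3′ UTR. The HOXD12 match spans 176100778 to 176100784 of that chromosome and strand, starting at base 18 of 433. Each lies in the last exon, exon 2. Neither is followed by the A that would make an 8-base match. No other HOX 3′ UTR held GCCGGGT. Of the tested HOX genes 1 of 36 held it, or 2.78%, against 634 of 12997 tested genes with a 3′ UTR, or 4.88%. The HOX 3′ UTRs were shorter, with a median of 863.5 bases against 1403. The 6-base match CCGGGT, which every GCCGGGT contains, was present in 5 of the 36, or 13.9%, and in 13.4% of all tested genes.

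Library totals ranged from 6079420 to 7651046 counts, and 3 counts corresponded to 0.392 to 0.493 counts scaled to the library total (CPM). HOX genes took 0.106% to 0.119% of each library. Of 9 genes known from this cell lineage, 7 were tested, among them the renal factor PAX2, VIM and the neurofilament gene NEFM. Their summed level was 1976 to 2070 CPM in the mock and 2102 to 2202 CPM in the mimic libraries, so these groups did not overlap, and what this has to do with the HOX genes was not tested. The marker lists of blood, endothelium and liver each summed to at most 1.31 CPM in any library. Of the fibroblast markers COL1A1 stood at 35.4 to 41.1 CPM, while COL1A2 had at most 0.164 CPM and COL3A1 at most 0.417 CPM. In bulk RNA, fewer cells that express a gene and less of its RNA per cell cannot be told apart.

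The first question was which HOX genes 293T cells express. Transcripts of all 4 clusters were present. To compare genes, the CPM of each was divided by its annotated exon length in kilobases, and levels per kb are given as means over all 6 libraries with the SD between libraries. The highest level was that of HOXD10, which patterns the hindlimb and its motor neurons, at 45.4 ± 2.58 CPM per kb. The median of 13145 tested protein-coding genes was 6.91 CPM per kb, and 18 of the 39 HOX genes lay above it. HOXD10 stood above 93.9% of those genes, HOXC11 above 8.28%.

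**Figure D1:**
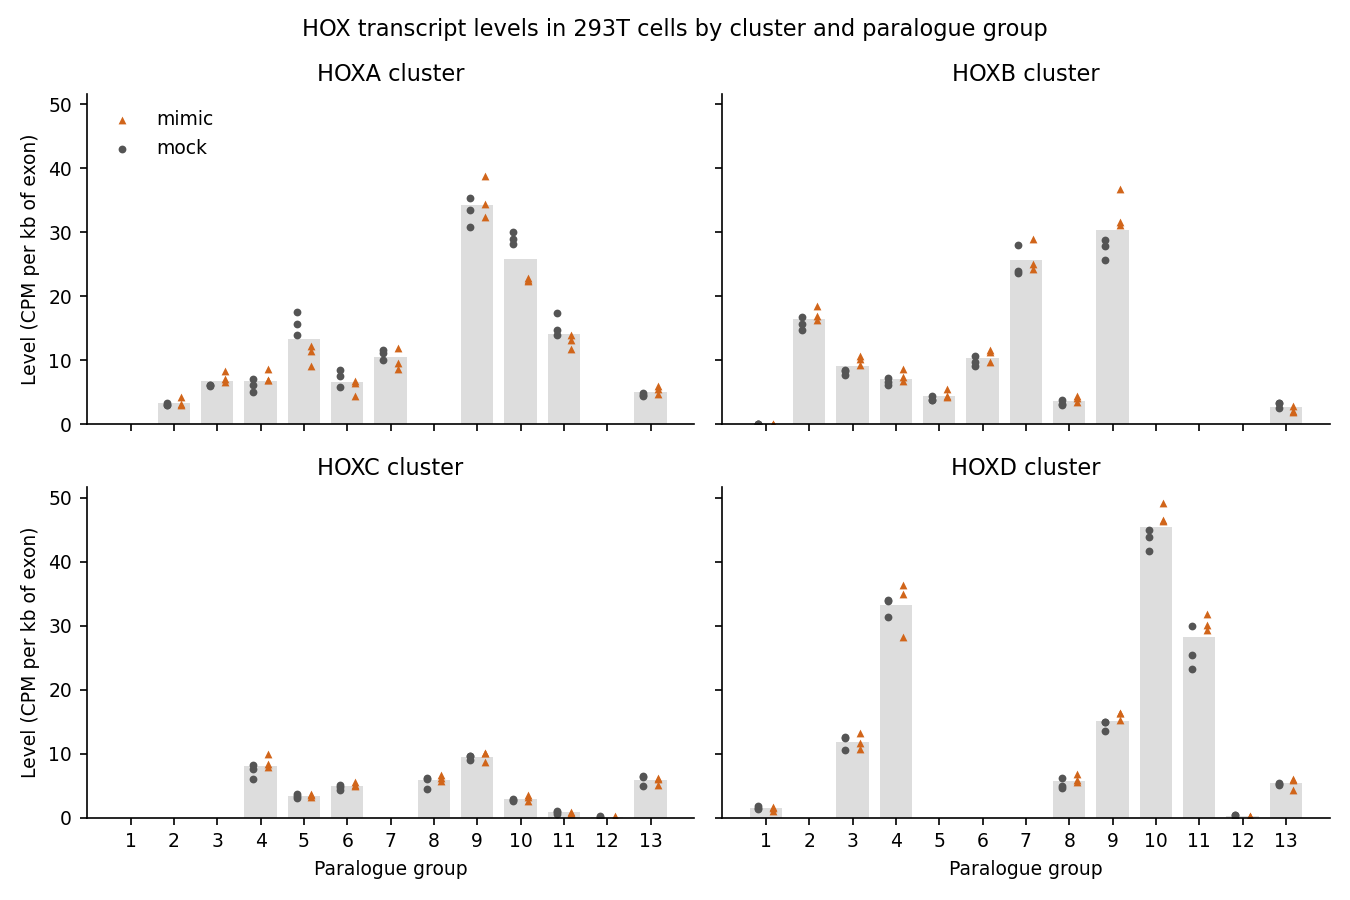
Level of each HOX gene described here in CPM per kb of exon (linear axis) against paralogue group, 1 panel per cluster, with the mean over 6 libraries as a bar and each library as a point (mock circles, mimic triangles). HOXD10 is the highest at 45.4, the HOXC genes all lie at or below 9.53, and HOXB1, HOXC12 and HOXD12 are close to 0.

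By this exon length, the 10 highest genes came from the HOXD (4 genes), HOXA (3) and HOXB (3) clusters and none from HOXC. In CPM, HOXD10 stood at 133, 125 and 125 in the mimic libraries and at 112, 121 and 118 in the mock libraries. HOXA9, a posterior gene known for its part in blood progenitors and leukaemia, had 104, 98.2 and 117 against 93.3, 101 and 107 CPM. HOXD10 was highest in each of the 6 libraries, also per kb, at 41.7 to 49.2 against 30.8 to 38.8 for HOXA9. HOXD4, an anterior gene that acts in the hindbrain and neck vertebrae, ranged from 28.3 to 36.4 CPM per kb and HOXB9, a gene of the thoracic region, from 25.6 to 36.7. HOXA9 (34.2 ± 2.73), HOXD4 (33.2 ± 2.89), HOXB9 (30.3 ± 3.83) and HOXD11 (28.3 ± 3.28) therefore had overlapping ranges, and their order is not resolved between neighbours. HOXD4 shares 80.5% of its exon bases with another gene, HOXA9 27% and HOXD11 21.4%. How shared bases were counted is not given, so these levels are less certain than the SD shows.

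HOXD4 stood at 51.2, 41.5 and 53.4 CPM in the mimic libraries and at 49.8, 49.6 and 45.9 CPM in the mock libraries. HOXB7, active in the embryonic ureteric bud, had 38.4, 37.0 and 44.2 against 42.7, 36.6 and 36.2 CPM. These groups overlapped in both genes. HOXB2, an anterior gene of the hindbrain, had 38.1, 39.5 and 43.3 against 34.6, 36.4 and 39.0 CPM, again with overlap. Per kb HOXB7 lay at 25.6 ± 2.25, close to HOXA10 (25.8 ± 3.59), and HOXB2 at 16.5 ± 1.27, with its highest library (18.5) below the lowest of HOXB7 (23.7).

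HOXD9 completed the upper part of the HOXD cluster, at 28.6, 30.6 and 30.5 CPM after the mimic and 28.1, 27.8 and 25.2 CPM in mock. HOXA11, a posterior gene needed for the kidney and forearm, had 27.0, 30.2 and 32.3 against 34, 32.1 and 40.2 CPM. All HOXD9 mimic values were above all mock values, whereas the HOXA11 groups overlapped by the narrow margin of 32.3 to 32.1 CPM. Its paralogue HOXC11 was far lower, at 0.837 ± 0.164 CPM per kb against 14.1 ± 1.90 for HOXA11 and 28.3 for HOXD11.

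By paralogue group, the summed level per kb was highest in group 9, with 20.8% of the HOX total, followed by group 10 with 17.4%, group 4 with 12.9% and group 11 with 10.1%. Group 12 held 0.0974%. In group 4, HOXD4 and HOXA4 share 80.5% and 47.3% of their exon bases with other genes. Among the group 13 genes, the most posterior, HOXC13 of hair and nail (5.86 ± 0.696), HOXD13 of the digits (5.37 ± 0.616) and HOXA13 of limb and urogenital tract (5.03 ± 0.634) had similar levels. HOXB13, known from the prostate, lay lower at 2.69 ± 0.640 CPM per kb. By cluster, HOXD held 34.3% of the total, HOXA 30.4%, HOXB 25.6% and HOXC 9.74%. These shares moved when genes with shared exon bases were left out. Without the 12 genes that share over 20% of theirs, HOXA held 13.3%, HOXB 41.1%, HOXC 15.8% and HOXD 29.8%. The genes left out include HOXA9, HOXD4, HOXD11 and HOXA10, which are among the highest HOX genes. Leaving them out moves the shares whether or not reads were shared, and whether sharing altered the levels was not tested.

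The 3 untested genes were HOXB1, HOXC12 and HOXD12. HOXB1, which specifies a hindbrain segment, had 1 count in 1 mock library and none in the other 5. HOXC12 had 1 to 5 counts per library, 17 in all, and HOXD12 had 0 to 4, 16 in all. A count of 0 allows up to 3 counts at this depth, so expression of HOXB1 below that level was not detectable. The neighbours of HOXD12 were well above it, with HOXD13 at 500 and HOXD11 at 2482 counts over the 6 libraries. HOXC11 and HOXC13, the neighbours of HOXC12, had 113 and 594.

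The second question was how HOX genes differed between mimic and mock libraries. HOXA5 and HOXA10 fell and HOXB3, HOXB9 and HOXD11 rose, all by less than 2-fold. In all, 6 of the 36 tested genes changed, or 16.7%, against 13.0% of all 15607 tested genes that passed edgeR's quasi-likelihood test at an adjusted p of 0.05. In each direction the HOX share was 8.33%, against 6.80% of all genes that rose and 6.19% that fell. The share of HOX genes that changed was thus near that of all genes. The median log2 fold change was 0.130 over the tested HOX genes and 0.002 over all genes, with 25 HOX genes above 0 and 11 below.

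**Figure D2:**
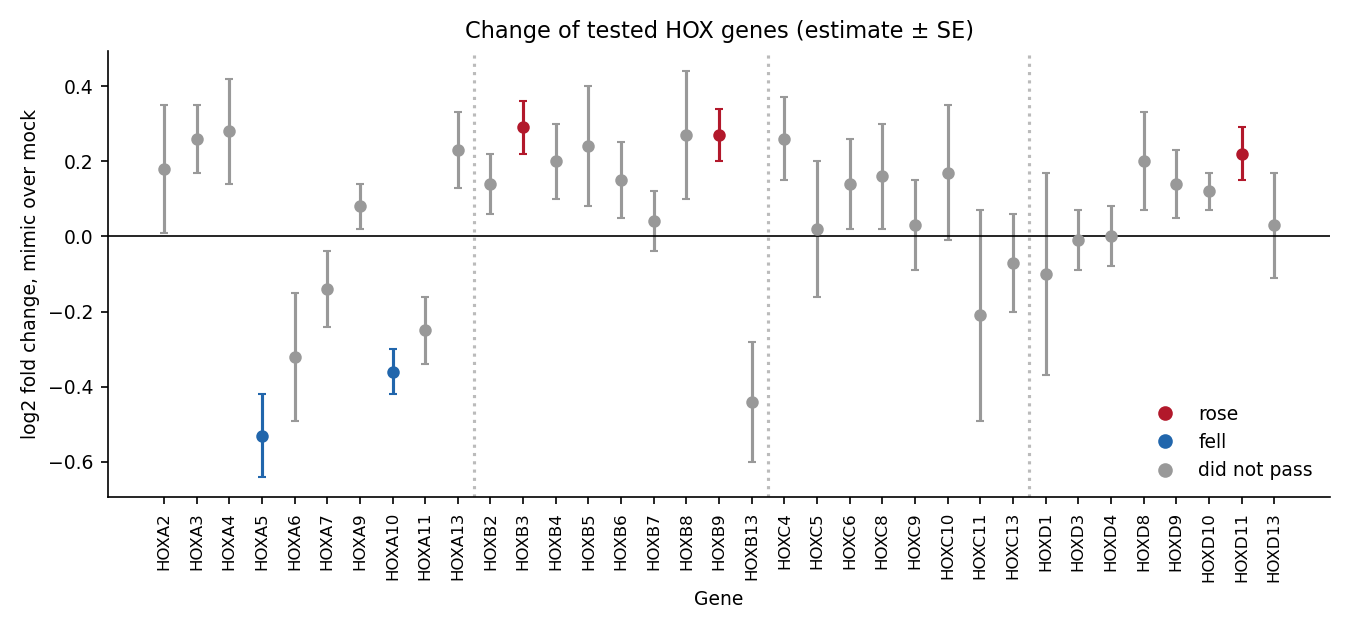
Log2 fold change (mimic over mock) of the tested HOX genes described here, ordered by cluster and paralogue group, with standard errors as bars and dotted lines between clusters. HOXA5 and HOXA10, which fell, lie at -0.53 and -0.36, and the risen genes HOXB3, HOXB9 and HOXD11 at 0.29, 0.27 and 0.22.

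HOXA5, a gene of lung and neck skeleton development, had 15.6, 21.0 and 19.5 CPM after the mimic and 23.9, 30.0 and 26.6 CPM in mock. The groups did not overlap. The mean was 18.7 ± 2.79 against 26.8 ± 3.09 CPM (SD, n = 3). Its log2 fold change was -0.53 ± 0.11 by edgeR, where the error is the SE (adjusted p = 0.000318), and no exon base is shared with another gene.

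HOXA10, a posterior gene known from the uterus and from blood progenitors, stood at 85.1, 82.6 and 83.4 CPM in the mimic libraries and 104, 111 and 108 CPM in the mock libraries. The mimic values were close together and well below all mock values. The log2 fold change was -0.36 ± 0.06 (edgeR adjusted p = 2.63e-06). Of its exon bases, 608 are shared with HOXA10-AS on the opposite strand, which is not analysed here, and 368 with AC004080.3 on the same strand. AC004080.3, a transcript unit that spans HOXA10 and HOXA9, was counted at 58.7% of the HOXA10 level and had a log2 fold change of -0.05 ± 0.07. HOXA9, which also shares exons with it, had 0.08 ± 0.06, so neither of these 2 genes passed in the direction of HOXA10. HOXA11, on the other side of HOXA10, had -0.25 ± 0.09 and did not pass (edgeR adjusted p = 0.0637).

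HOXB3, an anterior gene of the hindbrain and neck, had 76.0, 69.0 and 79.3 CPM after the mimic and 57.8, 62.0 and 63.8 CPM in mock. All mimic values were higher than all mock values. Its log2 fold change was 0.29 ± 0.07 (edgeR adjusted p = 0.00125). HOXB3 shares 433 exon bases with HOXB6 and 159 with HOXB4 on the same strand, and 374 with HOXB-AS1 on the other. These had 0.15 ± 0.10, 0.20 ± 0.10 and 0.13 ± 0.08 and did not pass.

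HOXB9 stood at 81.6, 80.2 and 94.8 CPM in the mimic libraries and 66.2, 71.9 and 74.3 CPM in the mock libraries. These groups did not overlap either. Its log2 fold change was 0.27 ± 0.07 (edgeR adjusted p = 0.00216). No exon base of HOXB9 is shared with another gene.

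HOXD11, which acts with HOXA11 in the kidney and forearm, had 63.4, 61.9 and 67.2 CPM after the mimic and 49.0, 53.5 and 63.1 CPM in mock. Mock replicate 3, at 63.1 CPM, lay within the mimic range. The log2 fold change was 0.22 ± 0.07 (edgeR adjusted p = 0.0314). HOXD11 no longer passed by DESeq2, where its adjusted p was 0.162. Nor did it pass in edgeR without mock replicate 1 (adjusted p = 0.32) or 2 (0.11), or mimic replicate 1 (0.0729) or 3 (0.072). It is the tested HOX gene with the GCCGGGT match shown above, and its values were higher, not lower, after the mimic. It shares 452 exon bases with HOXD10, which had 0.12 ± 0.05.

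**Figure D3:**
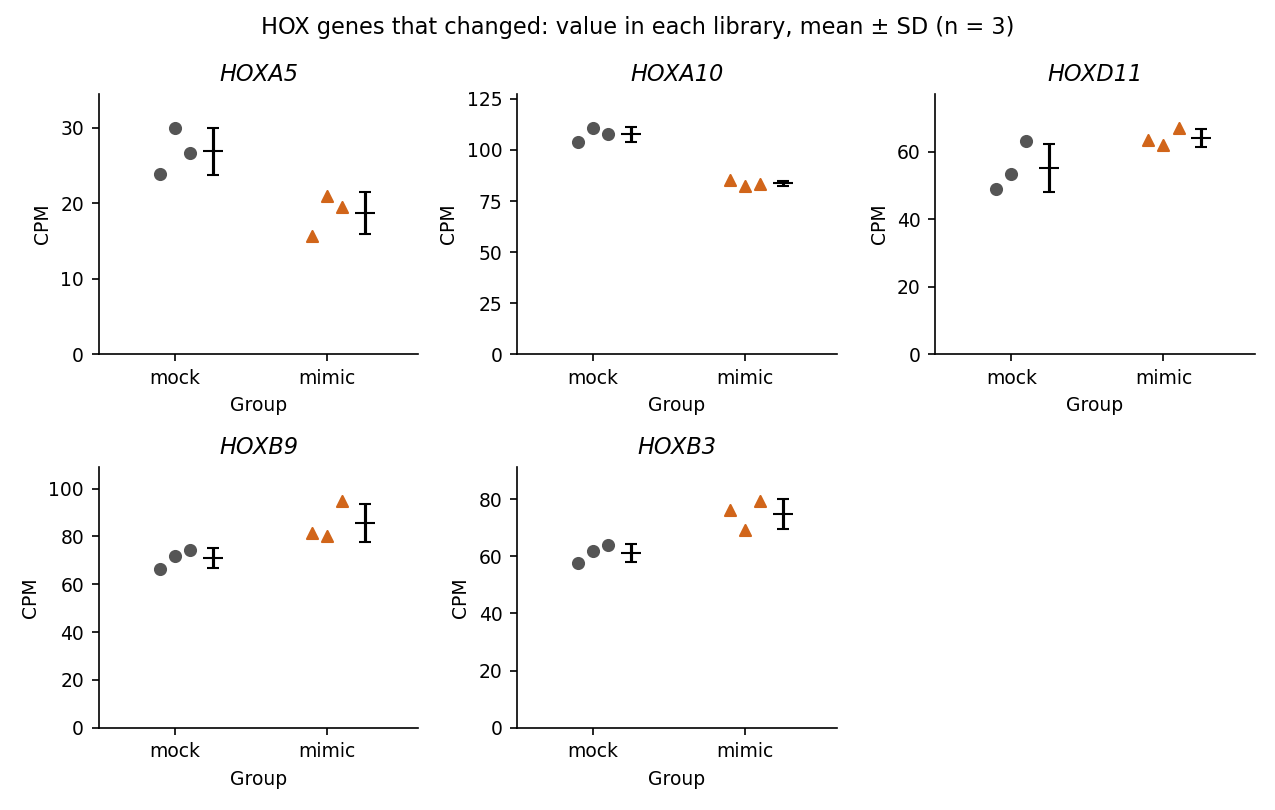
Level in CPM of HOX genes that changed, with each library as a point (mock circles, mimic triangles) and the mean ± SD of 3 libraries beside them. Mimic and mock values are apart in all panels except HOXD11, where mock replicate 3 at 63.1 lies within the mimic range of 61.9 to 67.2.

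In 8 of the 36 tested genes, or 22.2%, all mimic libraries lay on 1 side of all mock libraries, against 28.3% of all tested genes. The mimic side was the higher in 5 HOX genes, against 14.4% of all genes, and the lower in 3, against 13.9%. Besides 5 of the 6 changed genes these were HOXA3, HOXD9 and HOXD10, with higher mimic values. HOXA3, a gene of thymus and parathyroid development, had 0.26 ± 0.09 without passing (edgeR adjusted p = 0.0566). HOXD10 and HOXD9 had 0.12 ± 0.05 and 0.14 ± 0.09, with adjusted p of 0.129 and 0.365 by the same edgeR test.

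The 30 tested genes that did not pass had log2 fold changes between -0.44 and 0.28 and edgeR adjusted p between 0.0566 and 0.995. The lowest was HOXB13, at 7.94 ± 1.84 CPM after the mimic and 10.7 ± 1.76 CPM in mock (adjusted p = 0.0611 by edgeR). HOXA11, at 29.8 ± 2.63 against 35.4 ± 4.2 CPM, had -0.25 ± 0.09 (adjusted p = 0.0637 by edgeR). HOXB13 passed without mimic replicate 2 (0.0106) and without mock replicate 3 (0.0318), HOXA11 without mimic replicate 3 (0.02) and without mock replicate 2 (0.0331). HOXA13 passed without mimic replicate 3 (0.0238) and HOXA3 without mimic replicate 1 (0.0353).

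Within paralogue groups, values on both sides of 0 were found. In group 10, HOXA10 fell, while HOXC10 and HOXD10 had 0.17 ± 0.18 and 0.12 ± 0.05. In group 5, HOXA5 fell, while HOXB5 and HOXC5 had 0.24 ± 0.16 and 0.02 ± 0.18. In group 3, HOXB3 rose, HOXA3 had 0.26 and HOXD3 -0.01 ± 0.08. Differences between paralogues were not tested.

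The 3 genes that rose belonged to HOXB and HOXD. Over all tested genes, 6.80% rose and 6.19% fell. In HOXA, the genes that fell included HOXA5 and HOXA10, and none of the 11 rose. On the anterior side of HOXA5, HOXA2, HOXA3 and HOXA4 had 0.18, 0.26 and 0.28. On its posterior side HOXA6 and HOXA7 had -0.32 and -0.14. None of these neighbours of HOXA5 passed. In HOXB, 2 of 9 rose, or 22.2%, and none fell. All 8 genes from HOXB2 to HOXB9 had values above 0, from 0.04 (HOXB7) to 0.29, while HOXB13 had -0.44 ± 0.16. Over all 15607 tested genes, 7867 had values above 0. In HOXC none of 8 passed by edgeR, with 1 unadjusted p under 0.05, that of HOXC4 (0.26 ± 0.11). DESeq2 passed no HOXC gene either, but it gave no adjusted p to HOXC5, HOXC10 and HOXC11. In HOXD, 1 of 8 rose, or 12.5%, and none fell. Whether the clusters differed from each other was not tested.

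Summed over its genes, the HOXA cluster stood at 346, 346 and 381 CPM in the mimic libraries and at 376, 384 and 398 CPM in the mock libraries. The groups overlapped, with a log2 ratio of means of -0.11. HOXB stood at 313, 305 and 351 against 280, 282 and 288 CPM, without overlap and with a log2 ratio of 0.19. HOXD stood at 346, 328 and 358 against 315, 324 and 319 CPM, also without overlap, with 0.11. HOXC had 96.7, 98.3 and 108 against 97.0, 90.2 and 93.6 CPM, with overlap. Mimic replicate 3 was the highest mimic library in all 4 sums. Without it the log2 ratios were -0.16 for HOXA, 0.13 for HOXB, 0.06 for HOXC and 0.08 for HOXD. These sums are descriptions without a test. They include genes that changed, such as HOXB3 and HOXB9 in HOXB and HOXD11 in HOXD, so they are not separate from the results for single genes.

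**Figure D4:**
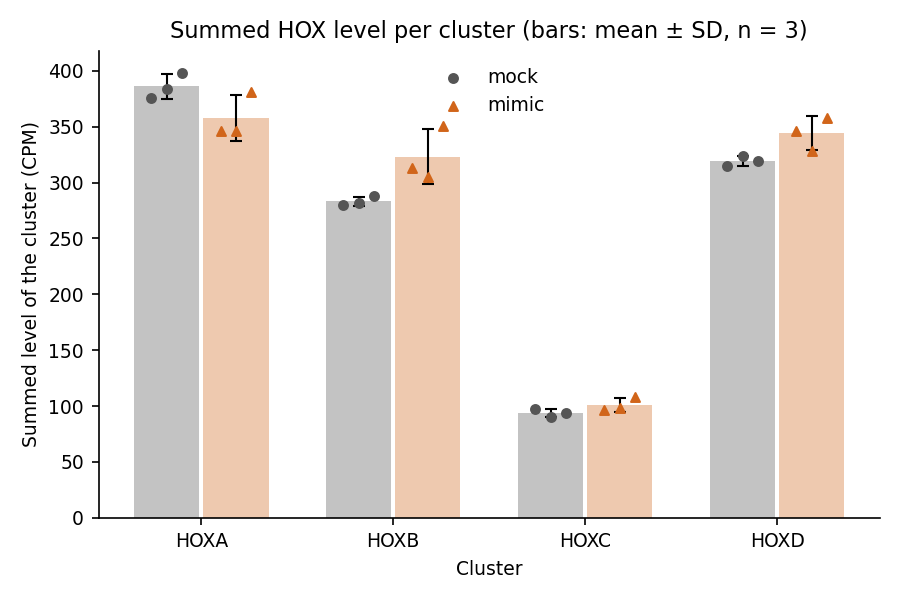
Summed level of each HOX cluster in CPM, with bars for the mean, error bars for the SD of 3 libraries and each library as a point (mock circles, mimic triangles). HOXB and HOXD are higher in all mimic than in all mock libraries, while the groups overlap in HOXA and HOXC.

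Genes that work with HOX proteins or act on the clusters were read from the same fit. Among the PBX, MEIS and PKNOX cofactors, homeodomain proteins that bind DNA together with HOX proteins, 1 of 9 rose and none fell, or 11.1% against 13.0% of all tested genes. It was MEIS2, at 28.1, 22.5 and 26.4 CPM after the mimic and 20.5, 20 and 19.8 CPM in mock, with a log2 fold change of 0.35 ± 0.10 (adjusted p = 0.0148 by edgeR). That call ended under DESeq2 and without mimic replicate 1 or mock replicate 3, each of which left 0 of 9.

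Of 27 tested Polycomb genes 3 rose and 3 fell, or 22.2% against 13.0% of all tested genes, with a median of -0.011. KDM2B, which brings a Polycomb complex to unmethylated CpG islands, rose from 53.4 ± 1.58 to 80.4 ± 2.46 CPM (edgeR adjusted p = 1.47e-10). CBX2, a reader of the Polycomb histone mark, changed by 0.26 ± 0.06, and the histone-binding subunit RBBP7 by -0.20 ± 0.04. The methyltransferase EZH2 had 0.08 ± 0.06 and did not pass. Without mock replicate 1, 3 of the 27 passed.

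Of 22 tested trithorax, MLL and elongation genes 4 rose and 4 fell, or 36.4% against 13.0% of all tested genes, with a median of 0.061. DOT1L, the histone methyltransferase recruited by MLL fusion proteins, rose from 113 ± 7.25 to 144 ± 9.57 CPM. SETD1A, a methyltransferase of active promoters, changed by 0.23 ± 0.05, and KMT2D, its counterpart at enhancers, by -0.18 ± 0.05. KMT2A, the MLL gene itself, had 0.09 ± 0.05 and did not pass. DESeq2 called 4 of the 22, as did edgeR without mimic replicate 1 or mock replicate 3, and 5 passed without mock replicate 1 or 2.

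Of 19 tested upstream axial regulators and insulator genes 1 rose and none fell, or 5.26% against 13.0% of all tested genes. It was MAZ, a zinc-finger protein that acts at HOX boundaries, which changed by 0.14 ± 0.04. It did not pass without mimic replicate 1 or 2 or without mock replicate 1 or 2, each of which left 0 of 19, and without mimic replicate 3 the count was 2. CTCF had 0.09 ± 0.06, and ALDH1A2, which makes retinoic acid, -0.13 ± 0.06. Of the antisense and non-coding genes in the clusters, HOXB-AS1 and HAGLR were tested. HOXB-AS1 had 47.0 ± 3.62 against 42.8 ± 2.65 CPM and HAGLR 17.9 ± 2.55 against 20 ± 3.24 CPM, and neither passed (edgeR adjusted p = 0.283 and 0.352). HAGLROS had 58 counts in all and was not tested. The other 16 names of that list, HOTAIR and HOTTIP among them, were not found by symbol among the counted genes.

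Of 15 tested genes next to the clusters 2 rose and 1 fell, or 20% against 13.0% of all tested genes. CBX5, a heterochromatin protein gene near HOXC, changed by 0.25 ± 0.05 and its neighbour HNRNPA1, an RNA-binding protein gene, by 0.14 ± 0.05. SNX11, a sorting nexin gene near HOXB, changed by -0.30 ± 0.10. Without mimic replicate 1 or mock replicate 3, and under DESeq2, 1 of the 15 passed. EVX1 and EVX2, the homeobox genes at the posterior ends of HOXA and HOXD, had at most 0.315 and 1.25 CPM in any library and were not tested, although HOXA13 and HOXD13 beside them had 142 to 220 and 74 to 94 counts per library.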

How the data were processed

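Per the submitters' processing notes, reads were aligned to hg19 with STAR, and edgeR was used. The authors deposited raw counts per Ensembl gene. The sources used here do not give the counting program, its annotation or its use of strand. Genes missing from a library's table were set to 0. Symbols and exon lengths came from a gene name table and GENCODE 29 (GRCh38), and coordinates are from that build only. edgeR's filterByExpr kept 15607 genes and 99.7% of counts. TMM factors lay between 0.994 and 1.01. The quasi-likelihood test (robust, group only, two-sided) was adjusted by Benjamini-Hochberg over all tested genes, at 0.05. The fit was tested on simulated data. The variance between same-group libraries was 1.27 to 2.38 times that of sampling noise. It was 2.04 and 2.38 times in the pairs with mimic replicate 3, and at most 1.52 times in the other pairs. Counts hold no molecular identifiers, so floors cover counting error only.

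The members and lists were chosen with earlier results of these data known. Named genes were the HOX genes that passed, the 10 with the highest CPM per kb, HOX genes with a seed match, and up to 3 changed genes per related list by smallest p, or 2 where none changed. KMT2A, EZH2, CTCF, ALDH1A2, EVX1 and EVX2 were added after their values were seen. Some genes that meet the rule are counted in the totals but not reported here by name. Alternatives were DESeq2, other scaling, other filters, a replicate block and leaving out each library. The tests ran in edgeR 4.0.16 and DESeq2 1.42.0 under R 4.3.3.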

Additional observations from a re-analysis of the deposited data

How the results depend on the processing

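The number of changed HOX genes was 6 with library totals alone, with RLE factors, without a filter on low counts, with a mean of at least 5 CPM and with the replicate block, the same 6 genes each time. It was 5 to 7 when single libraries were left out, and 4 under DESeq2, which gave no adjusted p to 10 of the 36. Same-numbered libraries did not deviate together (correlations over 12886 genes of 0.093, -0.082 and -0.047), so the numbers were not used as pairs. HOXA5, HOXA10, HOXB3 and HOXB9 passed in every edgeR alternative. HOXD4, at 0.00, had -0.008 with library totals, -0.001 with RLE factors, -0.007 without the filter and -0.002 with the replicate block. Leaving out single libraries moved it from -0.066 to 0.103, HOXB7 from -0.036 to 0.125, HOXC5 from -0.04 to 0.094, HOXC9 from -0.015 to 0.098, HOXC13 from -0.183 to 0.013, HOXD1 from -0.256 to 0.057, HOXD3 from -0.087 to 0.057 and HOXD13 from -0.058 to 0.175. None of these genes passed in any alternative, though DESeq2 gave no adjusted p to HOXC5 and HOXD1. The same step gave 0 to 1 changed cofactors, 3 to 5 Polycomb, 4 to 8 trithorax, 0 to 2 axial and insulator and 1 to 4 flanking genes. DESeq2 gave 0 cofactors, 4 trithorax and 1 flanking gene. Chosen after seeing the data, the length of the transcript with the longest coding sequence put HOXC at 10.2% of the HOX total. With that length HOXD3 (rank 9) and HOXB3 (rank 10) entered the 10 highest HOX genes. HOXD9 (rank 11) and HOXA11 (rank 12) left them. Leaving out genes with over 20% shared exon bases gave 13.3% for HOXA, 41.1% for HOXB, 15.8% for HOXC and 29.8% for HOXD. The causes were not tested.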

Other observations

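Outside 3′ UTRs, GCCGGGT was present in the upstream part of the same transcripts in HOXA3, HOXB3 and HOXB13, or 8.33% of the tested HOX genes, against 8.97% of all tested genes. HOXB3 rose, and HOXA3 and HOXB13 had log2 fold changes of 0.26 and -0.44 that did not pass. Neither HOXA5 nor HOXA10, which fell, held the 7 bases in the annotated transcript searched.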
